A study of Mus musculus with 16 samples.

Results

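Reporter-dim and reporter-negative fibroblasts of the mouse colon, both positive for the surface protein Sca1, were compared on 8 arrays, 4 per population, out of 16 arrays in the series. They were chosen by sorted population in the sample titles, and both populations carry the labels of mice 1 to 4. All 28898 probe sets that name 1 gene entered, which gave 17097 genes. The arrays of reporter-high Sca1+ cells and of reporter-negative Sca1- cells, 4 each, entered the same fit and serve here only to place the 2 populations.

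All animals were Gli1CreERT2-ZsGreen mice on a C57BL/6 background, and no untreated or reporter-free animal was analysed here. Each received 1 mg tamoxifen into the peritoneum on 5 consecutive days, and colons were taken on day 6. The sort kept cells without Epcam, CD45 and CD31 and with gp38, and 2 ng of RNA per sample was amplified before hybridization. The reporter is switched on by a tamoxifen-dependent Cre under the control of Gli1. Brightness therefore records Gli1 activity and Cre action over the days of treatment, which need not equal Gli1 RNA at the sort.

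Hedgehog ligands of the gut come mainly from the epithelium and act on the mesenchyme beneath it, where they activate Gli1 and its feedback genes. Fibroblasts there secrete Wnt ligands, BMP ligands and BMP antagonists that set the balance between stem cells and mature cells in the crypt. Sca1 marks fibroblasts that lie mostly deeper in the wall and around vessels, which make matrix and, on stimulation, inflammatory mediators.

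The labelled animal did not hold for mouse 2. Xist, the RNA of the silent X chromosome of females, read 468 and 424 in the reporter-dim arrays of mice 1 and 2 and 18450 and 23486 in those of mice 3 and 4. In reporter-negative Sca1+ arrays it read 466 for mouse 1 and 18116, 20557 and 21946 for mice 2 to 4. Eif2s3y, a gene of the Y chromosome, read 3095 in reporter-dim and 146 in reporter-negative cells of mouse 2. The 2 arrays labelled mouse 2 therefore differ in sex-linked expression, and 2 of 4 reporter-dim arrays but 1 of 4 reporter-negative arrays had low Xist. Deviations from the population means over all genes correlated at 0.524, 0.624 and 0.349 between the arrays of mice 1, 3 and 4, and at -0.324 for mouse 2. Differences per mouse are given by label, and mouse 2 is not a pair in them. Counts with mouse as a block are given for 3 versions in a fixed order: with mouse 2 as labelled, with its arrays entered as 2 animals, and without it.

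**Figure D1:**
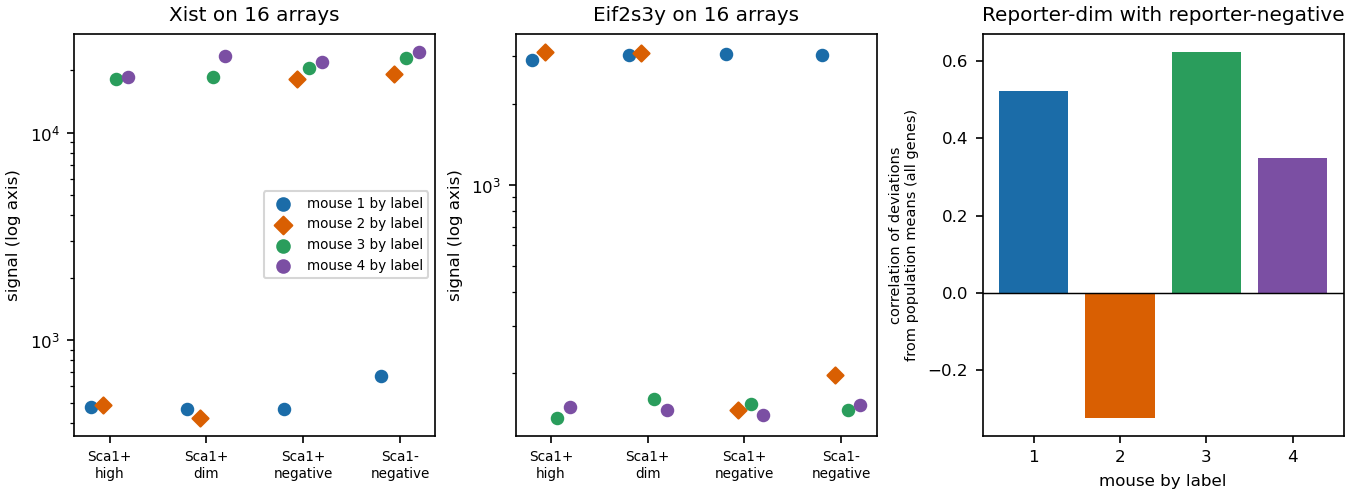
Signal of Xist and of the Y-linked gene Eif2s3y on 16 arrays (log axes, 1 point per array, coloured by labelled mouse, diamonds for mouse 2), and the correlation over all genes between the deviations of the reporter-dim and reporter-negative arrays of each mouse. Mouse 2 has an Xist signal of 424 in reporter-dim and 18116 in reporter-negative cells, and its correlation of -0.324 is the only negative one of the 4.

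Array medians lay between 666 and 686 in the 8 arrays, and the number of arrays limits the precision. All 10 fibroblast genes checked, among them Col1a1, Col3a1, Dcn and Vim, lay above the highest nonspecific control on all 8 arrays. Transcripts of gated-out cells were present too: Epcam read 6249, 7773, 13478 and 13623 in reporter-dim and 12855, 18063, 20060 and 20560 in reporter-negative cells. That difference of -0.86 ± 0.39 (log2 ± SE) did not pass the test (adjusted p = 0.217, limma). With mouse as a block it passed by label (adjusted p = 0.0271). It did not pass with mouse 2 as 2 animals or without mouse 2 (adjusted p = 0.0592 and 0.0652, and 0.00865 to 0.726 over all alternatives). The 22 colon epithelium genes had a mean log2 signal of 12.78 to 13.88 in reporter-dim and 13.61 to 14.37 in reporter-negative arrays, and none of the 22 was at array background. The 3' to 5' signal ratio of the Gapdh control was 1.02 ± 0.014 (SD, n = 4) and 0.954 ± 0.008. In bulk samples fewer cells of a type and less RNA per cell cannot be told apart.

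Reporter-dim cells differed from reporter-negative Sca1+ cells in a moderate number of genes, with the growth factor gene Bmp6 and matrix genes on one side and the inflammatory gene Ptx3 and the transcription factor genes Ebf2, Ebf3 and Prrx1 on the other. Of 17097 genes, 154 were higher in reporter-dim cells, which is 0.901% of those tested, and 104 were lower, which is 0.608% (limma, Benjamini-Hochberg adjusted p under 0.05). The median difference was 0.75 among the higher genes, -0.67 among the lower ones and -0.0042 over all genes. Past a 2-fold difference lay 38 higher and 28 lower genes. The arrays of the populations did not overlap for 251 of the 258 genes, and the share over all genes is not given here. The sign was the same in all 4 labelled mice for 257, and for 15.3% (higher) and 18.7% (lower) of all genes. The 258 genes were called on these same arrays, which itself favours both counts.

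Counts were larger with the animal as a block. By label the block called 1056 genes higher (6.18%) and 1330 lower (7.78%). With the arrays of mouse 2 entered as 2 animals it called 673 higher (3.94%) and 898 lower (5.25%), and 255 of the 258 genes were among them. Without mouse 2 the blocked fit called 337 higher (1.97%) and 459 lower (2.68%), and 201 of the 258 were among them. At an unadjusted p under 0.05, 10.1% of all genes were higher and 11.6% lower. Without a block the count rested on single arrays. It was 1540, 10, 33 and 10 with mouse 1, 2, 3 or 4 left out. Leaving out a single reporter-dim array of mice 1 to 4 gave 37, 34, 295 and 154, and leaving out a reporter-negative array 1258, 43, 35 and 36. Scaled to the hybridization controls, 573 genes were called and 91.3% of them were higher, against 59.7% here.

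**Figure D2:**
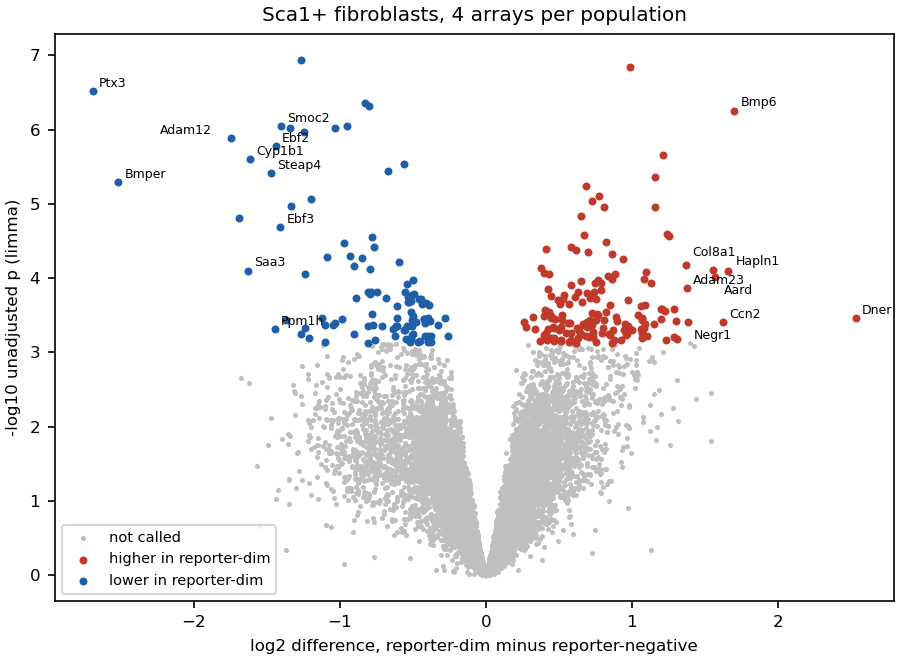
Log2 difference of reporter-dim minus reporter-negative Sca1+ cells (x axis) against the -log10 of the unadjusted p of limma (y axis) for 17097 genes, 4 arrays per population. The 154 higher genes are red and the 104 lower genes blue, and the largest differences are those of Ptx3 at -2.69 and Dner at 2.53.

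Gli1 itself followed the sort. It read 2705, 2183, 2442 and 1961 in the reporter-dim arrays of mice 1 to 4 and 1545, 889, 1013 and 968 in the reporter-negative arrays. The lowest reporter-dim array lay above the highest reporter-negative one, and the difference was 1.1 ± 0.21 (adjusted p = 0.0257). Among 21 Hedgehog targets and pathway genes 3 were higher and 2 lower, with a median of 0.36. The 3 blocked fits called 12, 7 and 5 higher and 3, 2 and 2 lower.

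The other 2 higher members were Osr1 and Sfrp1. Osr1, a transcription factor gene of gut and urogenital mesenchyme, read 7094, 6621, 4826 and 4503 against 3291, 2484, 2080 and 2122. No array overlapped, and the difference was 1.21 ± 0.25 (adjusted p = 0.0400). Sfrp1, a secreted Wnt inhibitor, was higher by 1.04 ± 0.22 (22760 ± 3072 against 11330 ± 3251, mean signal ± SD, n = 4, adjusted p = 0.0427).

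The 2 lower members both encode Hedgehog co-receptors and are named after their values were seen. Cdon read 864, 736, 886 and 869 against 1355, 1333, 1542 and 1607, a difference of -0.80 ± 0.10 (adjusted p = 0.00159). Gas1 read 2383, 2347, 1967 and 1822 against 2936, 2974, 3147 and 2643, a difference of -0.46 ± 0.11 (adjusted p = 0.0493). Neither gene had overlapping arrays. Boc, the related co-receptor, differed by -0.15 ± 0.14 and did not pass (adjusted p = 0.600).

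The feedback receptor gene Ptch1 did not pass, and mouse 1 went the other way. It read 22764, 26766, 16395 and 26654 in reporter-dim and 25514, 6102, 5307 and 12792 in reporter-negative cells (1.16 ± 0.42, adjusted p = 0.140). Hhip, the secreted Hedgehog inhibitor, read 4080, 5473, 5071 and 3536 against 3990, 1214, 1243 and 1759. Its difference of 1.31 ± 0.36 did not pass either (adjusted p = 0.0745). Foxf1, a Hedgehog-induced forkhead gene, overlapped in the same way, with 10801 in the reporter-negative array of mouse 1 against 4614 to 6358 in the others. With the block by label these 3 genes passed, but without mouse 2 they did not (adjusted p = 0.204 for Ptch1, 0.207 for Hhip and 0.129 for Foxf1, and 0.00151 to 0.559 over all alternatives of the 3 genes). Hhip also did not pass with mouse 2 entered as 2 animals (adjusted p = 0.0721). Scube1, which encodes a protein that helps release Hedgehog, was the 1 member called among 8 genes of ligands and processing (6848 ± 565 against 3297 ± 655, 1.07 ± 0.23, adjusted p = 0.0427).

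Wnt ligands moved with the reporter in a subset. Of 23 Wnt ligand and R-spondin genes 4 were higher and 1 was lower, with a median of 0.01, and the counts were the same in the 3 blocked fits. Wnt2b, a canonical ligand made by gut mesenchyme, read 9637, 9999, 7399 and 9603 in reporter-dim and 4747, 3597, 3434 and 4005 in reporter-negative cells. All reporter-dim arrays lay well above all reporter-negative arrays (1.22 ± 0.16, adjusted p = 0.0027). Wnt5b and Wnt4, ligands typical of fibroblasts near the epithelium, were higher by 0.95 ± 0.21 (adjusted p = 0.0427) and 0.89 ± 0.17 (adjusted p = 0.0259). Of 2 Wnt5b probe sets 1 passed, and the other stood at 0.28. Wnt2, named after its values were seen, read 879, 1301, 853 and 1010 against 691, 616, 470 and 658 (0.73 ± 0.15, adjusted p = 0.0419).

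The lower member was Rspo1, an R-spondin that amplifies Wnt signals. It read 183, 180, 174 and 180 against 232, 254, 305 and 271 (-0.56 ± 0.08, adjusted p = 0.00307). All of these arrays were at or below the highest nonspecific control, so the probe set was at array background in both populations. Wnt5a and Rspo3, which are given for their known role near the crypt base, did not pass (0.23 ± 0.28, adjusted p = 0.695, and 0.05 ± 0.21, adjusted p = 0.924).

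BMP genes split by molecule. Bmp6, a secreted BMP ligand, read 9911, 11453, 9102 and 7944 in reporter-dim and 4627, 2352, 2549 and 2637 in reporter-negative cells. The reporter-negative array of mouse 1 was the highest of its group but lay below every reporter-dim array (1.70 ± 0.21, adjusted p = 0.00159). Gdf10, a ligand of the same superfamily, went the other way with 2078, 2190, 3071 and 1931 against 5519, 3452, 6634 and 4767 (-1.12 ± 0.24, adjusted p = 0.0427). These were the 2 members called among 14 BMP and GDF ligands.

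Of 16 BMP antagonists and modulators 3 were lower and none higher. The 3 blocked fits called 3, 2 and 2 higher and 3, 3 and 2 lower. Bmper, which binds BMPs outside the cell, read 193, 194, 160 and 191 in reporter-dim and 1035, 559, 1844 and 1157 in reporter-negative cells. It was at array background on all 4 reporter-dim arrays and was therefore at least 3.20-fold lower (measured difference -2.52 ± 0.36, adjusted p = 0.00436). Smoc2, a matricellular protein that modulates BMP and growth factor signals, read 923, 1118, 1344 and 871 against 3123, 3572, 2558 and 2059. No array overlapped (-1.40 ± 0.18, adjusted p = 0.00164). Fst, the activin-binding follistatin, was lower by a smaller step (675 ± 66 against 1036 ± 156, -0.61 ± 0.13, adjusted p = 0.0370).

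Grem1, a BMP antagonist known from fibroblasts around the crypt base, fell just short of the threshold and is named after its values were seen. It read 8965, 7548, 5358 and 8531 against 4341, 1905, 2236 and 3219. The arrays did not overlap, and the difference was 1.43 ± 0.34 (adjusted p = 0.0517). It passed in the 3 blocked fits (adjusted p = 0.00356, 0.00733 and 0.0294, and 0.00183 to 0.422 over all alternatives). The list's median of 0.12 thus had the opposite sign to its 3 called members.

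The largest difference among the higher genes was that of Dner, a transmembrane protein that can act on Notch receptors. It read 4471, 6718, 2301 and 2467 in reporter-dim and 1883, 532, 330 and 459 in reporter-negative cells (2.53 ± 0.55, adjusted p = 0.0427). Mouse 1 was the highest reporter-negative array, and its reporter-dim array was also high. Notch4, a receptor of endothelial cells, was the other called member of 15 Notch genes (617 ± 123 against 1054 ± 168, -0.78 ± 0.17, adjusted p = 0.0427). Of its 3 probe sets 1 passed, and the differences ranged from -0.78 to 0.016.

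Several of the higher genes encode matrix or adhesion proteins. Hapln1, which links hyaluronan to proteoglycans, read 1561, 2234, 974 and 1476 against 872, 436, 364 and 364 (1.66 ± 0.31, adjusted p = 0.0257). Col8a1, a short-chain collagen of vessel walls and other matrices, read 7658, 9970, 5308 and 4406 against 3543, 1786, 1905 and 1987 (1.56 ± 0.29, adjusted p = 0.0256). Neither gene had overlapping arrays, and in both the reporter-negative array of mouse 1 was the highest of its group.

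Edil3, an integrin-binding matricellular protein, was higher by 1.37 ± 0.25 (3017 ± 584 against 1179 ± 338, adjusted p = 0.0236). The neuronal-type adhesion genes Negr1 and Adam23 were higher by 1.39 ± 0.30 (adjusted p = 0.0427) and 1.38 ± 0.27 (adjusted p = 0.0324). Ccn2, a matricellular protein and a classic target of YAP and TGF-beta, read 36276, 44032, 27221 and 22877 against 22879, 8677, 8447 and 6528. Its reporter-negative array of mouse 1 exceeded the reporter-dim array of mouse 4 by 2 units of signal, so Ccn2 was the 1 of 30 leading genes whose arrays overlapped (1.63 ± 0.36, adjusted p = 0.0427).

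Few genes of the matrix lists were called, and list medians lay above 0. Of 19 fibrillar collagen and elastic fibre genes 2 were higher and none lower, with a median of 0.50, and the 3 blocked fits called 10, 7 and 4 higher. Eln, the elastin gene, read 33111, 36691, 27304 and 21484 against 19477, 12572, 13016 and 11546 (1.07 ± 0.24, adjusted p = 0.0456). Fbln1, a fibulin of elastic fibres, was higher by only 0.40 ± 0.08 but with a narrow spread (68500 ± 1900 against 51940 ± 2571, adjusted p = 0.0257).

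Of 15 crosslinking and collagen processing genes 1 was higher, the prolyl hydroxylase gene P4ha3 (1.11 ± 0.26, adjusted p = 0.0464), with a list median of 0.54. Ltbp4, which stores latent TGF-beta in the matrix, was the 1 called member of 13 TGF-beta genes (40670 ± 3577 against 22570 ± 5018, 0.87 ± 0.20, adjusted p = 0.0431), whose median was 0.50. The proteoglycan Sdc2 (1.07 ± 0.23, adjusted p = 0.0427) and the integrin subunits Itgb3 (0.97 ± 0.22, adjusted p = 0.0431) and Itgb5 (0.75 ± 0.16, adjusted p = 0.0427) were higher too. Of 20 basement membrane genes none passed (10 higher and 2 lower at an unadjusted p under 0.05, limma, which 10.1% and 11.6% of all genes reached), and the median was 0.37. Lama2, the member with the largest difference, stood at 0.95 ± 0.28 (adjusted p = 0.0872). It passed in the 3 blocked fits (adjusted p = 0.00453, 0.00586 and 0.0282, and 0.00153 to 0.475 over all alternatives). The 3 blocked fits called 7, 5 and 3 crosslinking genes higher and 6, 4 and 2 TGF-beta genes higher, with 1, 1 and 0 TGF-beta genes lower. Of the basement membrane genes they called 5, 6 and 2 higher and 2, 2 and 1 lower. The median of the epithelial marker list had the opposite sign, at -0.72. With the epithelial level in the model the medians were 0.29 for fibrillar, 0.18 for crosslinking, 0.21 for TGF-beta and 0.22 for basement membrane genes. That fit called 0.0877% of all genes higher and 0.158% lower, and none of the genes of these 4 lists. The part of epithelial RNA in these lists was not tested.

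Receptors and growth factors with a known role in the gut wall were among the higher genes. Ptger2, a prostaglandin E2 receptor, read 1952, 2117, 1665 and 2021 against 1651, 651, 505 and 711. The reporter-negative array of mouse 1 came within 14 units of signal of the lowest reporter-dim array (1.29 ± 0.30, adjusted p = 0.0467). Ptger1, another receptor of this family, was higher by 0.73 ± 0.16 (4095 ± 188 against 2522 ± 591, adjusted p = 0.0427). Vipr2, a receptor for vasoactive intestinal peptide, was higher by 1.29 ± 0.27 (11490 ± 1764 against 4892 ± 1858, adjusted p = 0.0401).

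Hgf, the ligand of the epithelial receptor Met, read 5843, 5615, 4308 and 6712 in reporter-dim and 3200, 1890, 2315 and 2417 in reporter-negative cells. The groups did not overlap (1.20 ± 0.25, adjusted p = 0.0400). Fgf10, a growth factor of gut mesenchyme, and the receptor gene Fgfr2 were higher by 0.55 ± 0.13 (adjusted p = 0.0458) and 0.72 ± 0.15 (adjusted p = 0.0347). Of 3 Fgfr2 probe sets 1 passed, and the differences ranged from 0.31 to 0.72. Angptl4, a lipase inhibitor, was lower by 0.90 ± 0.17 (1182 ± 204 against 2231 ± 532, adjusted p = 0.0241). Of its 2 probe sets 1 passed, and the other stood at -0.28.

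**Figure D3:**
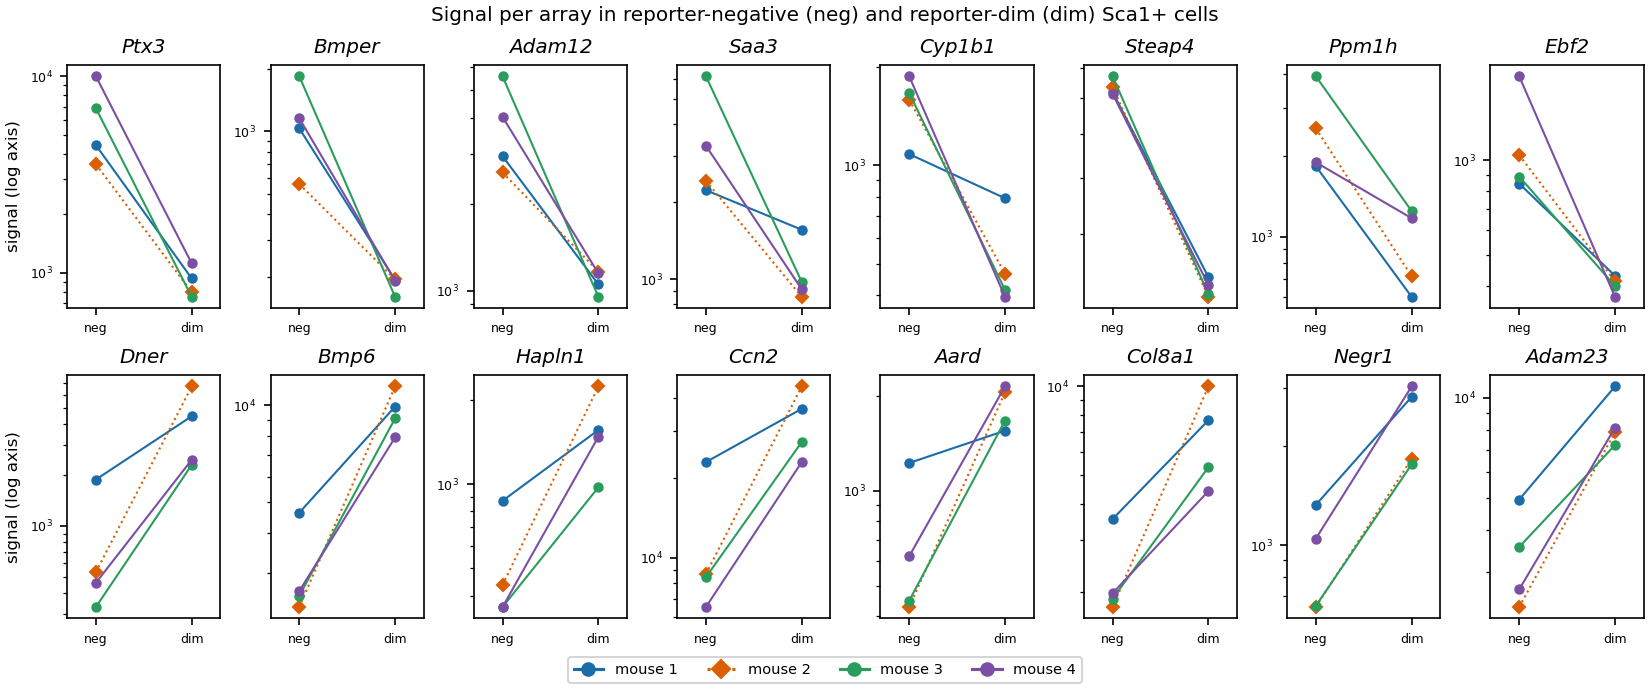
Signal per array (log axes, each panel on its own range) in reporter-negative (neg) and reporter-dim (dim) Sca1+ cells for the 8 largest falls (top) and 8 largest rises (bottom), with lines joining arrays of the same labelled mouse and mouse 2 dotted because its arrays differ in Xist. Ptx3 lies between 755 and 1116 in reporter-dim and between 3569 and 9998 in reporter-negative cells, and the reporter-negative array of mouse 1 is the highest of its group in each of the 8 rises.

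Genes of inflammation were among the lower genes. Of 21 acute phase and IL-6 family genes 3 were lower and none higher, and the 3 blocked fits called 6, 6 and 4 lower. The list's mean difference was -0.48, -0.46, -0.54 and -0.50 in mice 1 to 4, and its median was -0.12. The 3 genes were Ptx3, Saa3 and Steap4, whose promoters are shown because the genes were lower together. The windows come from the RefSeq promoter table of build GRCm38.p6, each 300 bases long and read 5' to 3' on the strand of the gene. They are chr3:66219637-66219936 (+) for Ptx3, chr7:46715627-46715926 (-) for Saa3 and chr5:7960222-7960521 (+) for Steap4. Capitals mark matches to TTNCNNAA on either strand, a loose form of the site of C/EBP factors, which act on acute phase genes.
Ptx3: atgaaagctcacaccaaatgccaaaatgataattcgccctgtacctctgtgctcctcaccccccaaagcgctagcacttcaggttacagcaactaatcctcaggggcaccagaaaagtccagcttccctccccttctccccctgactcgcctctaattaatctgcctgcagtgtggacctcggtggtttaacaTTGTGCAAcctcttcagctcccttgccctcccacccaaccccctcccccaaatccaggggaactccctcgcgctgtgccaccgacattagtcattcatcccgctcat
Saa3: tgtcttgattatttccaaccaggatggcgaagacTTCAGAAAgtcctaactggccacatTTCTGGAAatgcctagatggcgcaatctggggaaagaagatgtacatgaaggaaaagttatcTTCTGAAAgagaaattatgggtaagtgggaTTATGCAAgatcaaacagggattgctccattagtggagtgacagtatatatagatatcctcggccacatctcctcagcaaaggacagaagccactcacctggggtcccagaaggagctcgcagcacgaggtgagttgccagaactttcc
Steap4: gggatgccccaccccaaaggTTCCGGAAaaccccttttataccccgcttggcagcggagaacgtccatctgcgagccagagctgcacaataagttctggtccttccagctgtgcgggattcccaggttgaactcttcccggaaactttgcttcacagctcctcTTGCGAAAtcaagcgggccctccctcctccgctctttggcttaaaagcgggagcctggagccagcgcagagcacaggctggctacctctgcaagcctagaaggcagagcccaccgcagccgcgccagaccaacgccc
The windows held 1, 4 and 2 matches. The same letters occurred in 40.7% of all 32851 windows in the table, in 5 of the 9 matched genes among the 15 largest falls and in 5 of the 12 matched genes among the 15 largest rises. A GLI match (CCACCCA on either strand) occurred in 9.30% of all windows, among the rises in Hapln1 and Pianp and among the falls in Ptx3. These matches describe letters only.

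Ptx3, a secreted pattern recognition protein of the pentraxin family, read 936, 797, 755 and 1116 in reporter-dim and 4458, 3569, 6868 and 9998 in reporter-negative cells. Even the lowest reporter-negative array was above all reporter-dim arrays (-2.69 ± 0.31, adjusted p = 0.00159). Of its 2 probe sets 1 passed the threshold, and the other stood at -0.23. Saa3, an acute phase apolipoprotein, read 1556, 853, 975 and 913 against 2217, 2411, 6154 and 3301 (-1.63 ± 0.30, adjusted p = 0.0256). Mouse 3 had the highest reporter-negative array and mouse 1 the highest reporter-dim array.

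Steap4, a metalloreductase induced by inflammation and also a pericyte gene, read 2415, 2184, 2213 and 2319 against 6179, 6330, 6696 and 6126. Its arrays agreed closely within each population, and the difference was -1.47 ± 0.21 (adjusted p = 0.00367). Il6, the cytokine after which the list is named, read 4487, 4365, 2610 and 6836 against 8147, 5743, 8445 and 13092. The arrays overlapped, and the gene did not pass (-0.97 ± 0.53, adjusted p = 0.301).

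Genes of complement and a chemokine gene lay on the same side. C2, a protease of the classical pathway, read 534, 437, 502 and 533 against 816, 818, 1139 and 1145 (-0.95 ± 0.12, adjusted p = 0.00164). Cfb, a protease of the alternative pathway, was lower by 0.76 ± 0.18 (2607 ± 524 against 4384 ± 680, adjusted p = 0.0483). They were the 2 called of 16 complement genes, whose median was 0.25. Ccl7, a monocyte chemokine, was the 1 called of 29 chemokines (416 ± 54 against 754 ± 153, -0.85 ± 0.15, adjusted p = 0.0205). Ifi204, an interferon-inducible gene, read 454, 488, 420 and 443 against 907, 1042, 1056 and 1391 (-1.27 ± 0.13, adjusted p = 0.00122). The list of 18 interferon-stimulated genes had no called member (2 higher and 0 lower at an unadjusted p under 0.05, limma, which 10.1% and 11.6% of all genes reached).

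Transcription factor genes were called in both directions. Among 23 general mesenchymal factors 3 were lower and none higher: Ebf2, Ebf3 and Prrx1. The list's median of 0.30 had the opposite sign, and the 3 blocked fits called 3, 3 and 1 higher and 3, 3 and 2 lower. Ebf2, a factor of mesenchymal and fat precursors, read 431, 414, 400 and 370 in reporter-dim and 843, 1037, 887 and 1840 in reporter-negative cells. The reporter-dim arrays were close together and the highest reporter-negative array was that of mouse 4 (-1.44 ± 0.19, adjusted p = 0.00221). Ebf3 of the same family read 782, 775, 836 and 795 against 1328, 3016, 1657 and 3002 (-1.41 ± 0.23, adjusted p = 0.0118). Of its 3 probe sets 1 passed, and the differences ranged from -1.41 to -0.37. Prrx1, a homeobox gene of limb and skin mesenchyme, read 931, 931, 1165 and 770 against 1186, 4229, 2140 and 3187. Mouse 1 differed least (-1.36 ± 0.30, adjusted p = 0.0427).

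Among 23 factors of gut mesenchyme 4 were higher and 2 lower, with a median of 0.22. The 3 blocked fits called 8, 5 and 4 higher and 4, 3 and 2 lower. No test compared these lists. Tcf21, a factor of visceral fibroblast precursors, read 20430, 18162, 13517 and 17553 against 12384, 5337, 4936 and 7123 (1.31 ± 0.31, adjusted p = 0.0477). Osr1 is given above. Nkx2-3 and Isl1, named after their values were seen, were higher by 0.74 ± 0.15 (adjusted p = 0.0334) and 0.97 ± 0.22 (adjusted p = 0.0458).

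Gata6, a zinc finger factor of gut epithelium and mesenchyme, was lower, with 1441, 1839, 2135 and 2164 against 3326, 4013, 5214 and 3709 (-1.1 ± 0.24, adjusted p = 0.0427). Foxp1, named after its values were seen, was lower by 0.39 ± 0.08 (adjusted p = 0.0364). None of 32 Hox genes passed (2 higher and 7 lower at an unadjusted p under 0.05, limma, which 10.1% and 11.6% of all genes reached).

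Other lower genes had varied roles. Adam12, a metalloprotease of activated fibroblasts, read 1053, 1167, 953 and 1150 against 2938, 2579, 5573 and 4024 (-1.75 ± 0.23, adjusted p = 0.00188). Cyp1b1, a cytochrome induced by the aryl hydrocarbon receptor, read 793, 466, 416 and 396 against 1082, 1586, 1663 and 1872 (-1.61 ± 0.22, adjusted p = 0.00288). Both genes had separate groups, and Cyp1b1 differed least in mouse 1. Of 3 Cyp1b1 probe sets 2 passed, and the other stood at 0.026. Of 2 Adam12 probe sets 1 passed, and the other stood at -0.98. Aldh3a1, an aldehyde dehydrogenase also known as a target of this receptor, was higher by 0.73 ± 0.17 (619 ± 133 against 366 ± 14, adjusted p = 0.0454).

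Slit2, a repulsive guidance cue, read 488, 575, 553 and 529 against 1026, 1078, 1182 and 1092, with close values in each population (-1.03 ± 0.13, adjusted p = 0.00164). Of its 2 probe sets 1 passed, and the other stood at -0.14. Ntn4, a netrin, went the other way, with 4534, 4062, 2389 and 2792 against 1533, 1476, 1511 and 1748 (1.09 ± 0.24, adjusted p = 0.0427). They were 2 of the 3 called among 25 guidance genes, the other being the ephrin receptor gene Epha7 (0.40 ± 0.09, adjusted p = 0.0427).

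Wt1, a transcription factor of mesothelium and some fibroblasts, read 326, 286, 297 and 236 against 695, 529, 991 and 743. It was at array background on all reporter-dim arrays and at least 2.19-fold lower (measured difference -1.34 ± 0.17, adjusted p = 0.00164). Msln, the defining mesothelial gene, was at array background on all 8 arrays, and Upk3b overlapped (904, 913, 1080 and 876 against 1587, 1144, 856 and 1147). Of 14 mesothelial genes 2 were lower, Wt1 and Rspo1, and 7 were at background in reporter-dim and 5 in reporter-negative cells. The mean log2 signal of the list was 9.11 to 9.30 in reporter-dim and 9.56 to 9.62 in reporter-negative arrays. The part of this list level in the Wt1 difference was not tested.

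Lists of other cell types differed in how far they lay from 0. Over all genes 10.1% were higher and 11.6% lower at an unadjusted p under 0.05 (limma). Of 22 colon epithelium genes none passed (0 higher and 5 lower at an unadjusted p under 0.05, limma), and the list median was -0.72. The list mean was lower in all 4 labelled mice, by 0.83, 1.20, 0.48 and 0.41, of which the 1.20 of mouse 2 is no pair. The 3 blocked fits called 10, 4 and 4 of them lower. Of 21 endothelial genes 1 was lower, Robo4 (-0.41 ± 0.08, adjusted p = 0.0364), with a median of -0.41, and the 3 blocked fits called 4, 2 and 0 lower. Of 11 genes of interstitial cells of Cajal 2 were lower, Kit and Cacna1d, and the median was -0.025. Cacna1d passed in 1 of 2 probe sets, and the other had the opposite sign (0.14). Kit, the receptor that marks interstitial cells of Cajal, read 196, 262, 284 and 323 against 409, 507, 572 and 691. It was 3821 ± 1221 in Sca1- cells. Its difference between the Sca1+ populations was -1.03 ± 0.23 (adjusted p = 0.0427), measured with 3 of 4 reporter-dim arrays at array background. Of 20 leukocyte genes none passed (0 higher and 1 lower at an unadjusted p under 0.05, limma), with a median of -0.0074. The medians were -0.053 for 12 pericyte genes, of which 2 were lower, and -0.048 for 11 enteric glia and neuron genes, of which 1 was higher. None of 20 smooth muscle genes passed (3 higher and 0 lower at an unadjusted p under 0.05, limma), with a median of 0.26.

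No gene of the cell cycle and respiratory chain lists was called. Over all genes 10.1% were higher and 11.6% lower at an unadjusted p under 0.05 (limma). None of 31 cell cycle genes passed (0 higher and 16 lower at an unadjusted p under 0.05, limma), with a median of -0.42, and the 3 blocked fits called 12, 9 and 5 lower. None of 34 respiratory chain genes passed (0 higher and 27 lower at an unadjusted p under 0.05, limma), with a median of -0.32, and the 3 blocked fits called 20, 7 and 0 lower. With the epithelial level in the model the medians were -0.19 and -0.16. Mki67, a proliferation marker, read 1550, 1479, 2696 and 2240 against 2442, 6510, 4886 and 3384 (-1.06 ± 0.35, adjusted p = 0.114). It passed in the 3 blocked fits (adjusted p = 0.0124, 0.00128 and 0.0103, and 0.00128 to 0.512 over all alternatives). Its reporter-dim array of mouse 3 exceeded the reporter-negative array of mouse 1.

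Adding the epithelial level to the fit changed the rises and the falls differently in these counts, a contrast that was not tested itself. With the mean log2 signal of the colon epithelium list added to the model, 42 genes were called, 15 higher and 27 lower. Of the 15 largest rises 3 stayed called and all 15 became smaller, with a median ratio to the original difference of 0.745. Of the 15 largest falls 11 stayed called and 7 became smaller, with a median ratio of 1.01. Dner went from 2.53 to 1.74, and Ptx3 from -2.69 to -2.86. Whether epithelial RNA took part in these differences was not tested.

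**Figure D4:**
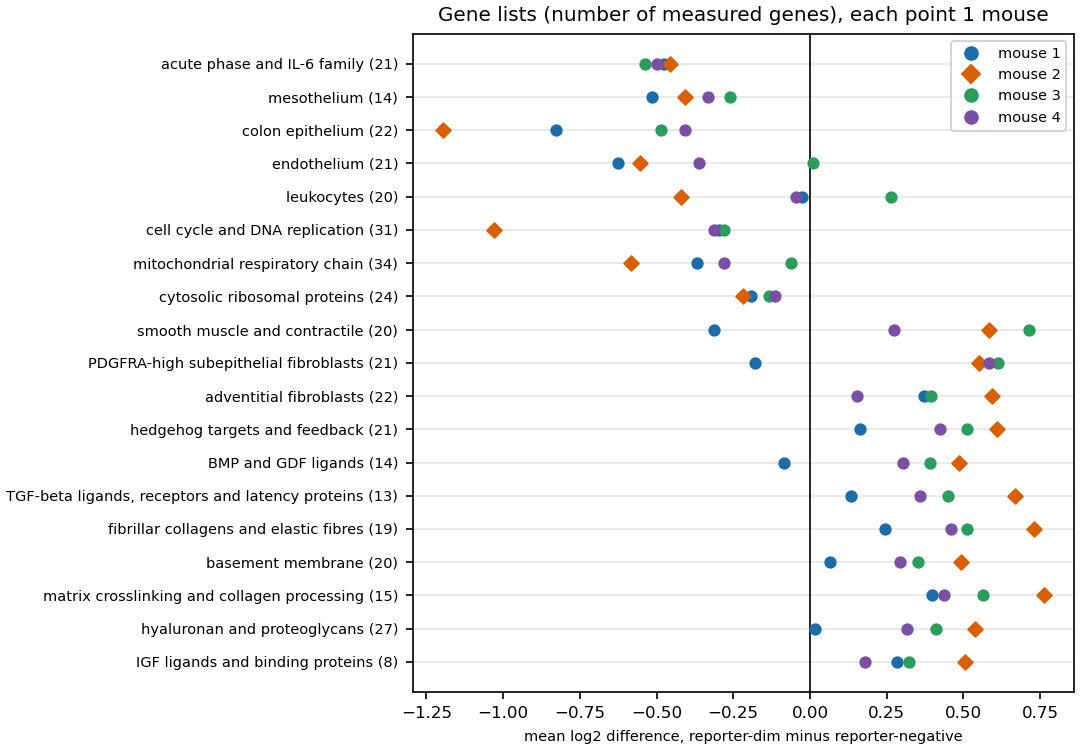
Mean log2 difference of reporter-dim minus reporter-negative Sca1+ cells (x axis) over the measured genes of 19 gene lists (number of genes in brackets), with 1 point for each labelled mouse and a diamond for mouse 2. The acute phase list lies between -0.54 and -0.46 in all labelled mice, whereas the colon epithelium list ranges from -1.20 (mouse 2, no pair) to -0.41.

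Few genes of the fibroblast subtype lists were called. Of 22 adventitial fibroblast genes 1 was lower, Ebf2, and none higher, yet the median was 0.44. The 3 blocked fits called 12, 10 and 3 higher and 2 lower each. Of 21 genes of PDGFRA-high subepithelial fibroblasts 2 were higher, Wnt4 and Wnt5b, with a median of 0.36 and a mean of -0.18 in mouse 1 against 0.55 to 0.61 in mice 2 to 4. The 3 blocked fits called 7, 5 and 3 of them higher. Thy1, a fibroblast surface gene checked for identity, read 2328, 2375, 2230 and 1727 against 1238, 1160, 1099 and 945 (0.96 ± 0.22, adjusted p = 0.0458). Pdpn, the gene of the gp38 gate, read 7234, 7063, 5626 and 6169 against 5417, 3310, 2828 and 3776. No array overlapped, but the difference of 0.80 ± 0.26 did not pass (adjusted p = 0.106). With the block it passed with mouse 2 as labelled and as 2 animals but not without it (adjusted p = 0.0124, 0.0322 and 0.078, and 0.00324 to 0.478 over all alternatives).

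Mouse 1 had the smallest median difference over the 15 largest rises and over the 15 largest falls. In all 15 of the largest rises the reporter-negative array of mouse 1 was the highest of its group, and in 14 of them mouse 1 had the smallest difference. In none of the 15 largest falls was its reporter-negative array the highest, and in 8 of them mouse 1 had the smallest difference. Over all genes 20 were at least 2-fold higher and 251 at least 2-fold lower in mouse 1, against 147 and 118 in mouse 3 and 127 and 86 in mouse 4. The arrays of mouse 2 are no pair and are not set beside these counts. The median difference over the 15 rises was 0.88 in mouse 1 and 1.77, 1.51 and 1.54 in mice 2 to 4. Over the 15 falls it was -1.09, -1.53, -1.60 and -1.85. Without mouse 2 and without a block, 0 of the 15 rises and 5 of the 15 falls stayed called. With the block, 30 of 30 passed when mouse 2 was entered as 2 animals and 27 when it was left out.

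The called genes were also set beside reporter-high cells. That comparison shares the 4 reporter-dim arrays, on which the genes were chosen as far from reporter-negative cells, and this choice itself favours small differences from reporter-high cells. The values are therefore given side by side and nothing is read from their sizes. Of the 154 higher genes 1, and of the 104 lower genes 5, also differed between reporter-high and reporter-dim cells at an adjusted p under 0.05, and 71 of the 258 at an unadjusted p under 0.05. The median difference of reporter-high minus reporter-dim was 0.19 over the higher and -0.07 over the lower genes, against 0.75 and -0.67 for reporter-dim minus reporter-negative. The reporter-dim mean lay between the other Sca1+ means for 122 of the higher and 61 of the lower genes. No gene was called outside both neighbours (0 with limma, 65 at an unadjusted p under 0.05 in both comparisons).

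Gli1 read 2611 ± 321 in reporter-high and 2323 ± 322 in reporter-dim cells, a difference of 0.17 (adjusted p = 0.730), and Bmp6 12590 ± 799 and 9602 ± 1474 (0.40, adjusted p = 0.345). Among the 15 rises the reporter-high mean was the highest of the 4 populations for 12 genes and the reporter-dim mean for 3. Hhip read 15630 ± 3670 in reporter-high and 4540 ± 889 in reporter-dim cells (1.77, adjusted p = 0.0277).

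Among the 15 falls the reporter-negative Sca1+ mean was the highest of the 4 populations for 13 genes. The falls were chosen as high in these same arrays, which itself favours this rank. Ptx3 read 1220 ± 465 in reporter-high and 376 ± 105 in Sca1- cells, both far below the 6223 ± 2877 of reporter-negative Sca1+ cells. Adam12, Ebf2, Ebf3, Prrx1 and Ifi204 were likewise low in Sca1- cells, with means of 796, 366, 605, 487 and 281. Not all falls were low there. Smoc2 read 2440 ± 399 in Sca1- cells, against 2828 ± 660 in reporter-negative Sca1+ and 1064 ± 215 in reporter-dim cells. Steap4 read 3118 ± 900 in Sca1- cells, also above its reporter-dim mean of 2283. Ppm1h and Sorbs2, a phosphatase and a cytoskeletal adaptor gene, were the 2 falls with their highest mean in Sca1- cells. They read 2846 ± 1074 and 1514 ± 554 there, above the reporter-negative Sca1+ means of 2545 and 1224. Of 3 Sorbs2 probe sets 1 passed, and the differences ranged from -1.33 to -0.027.

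**Figure D5:**
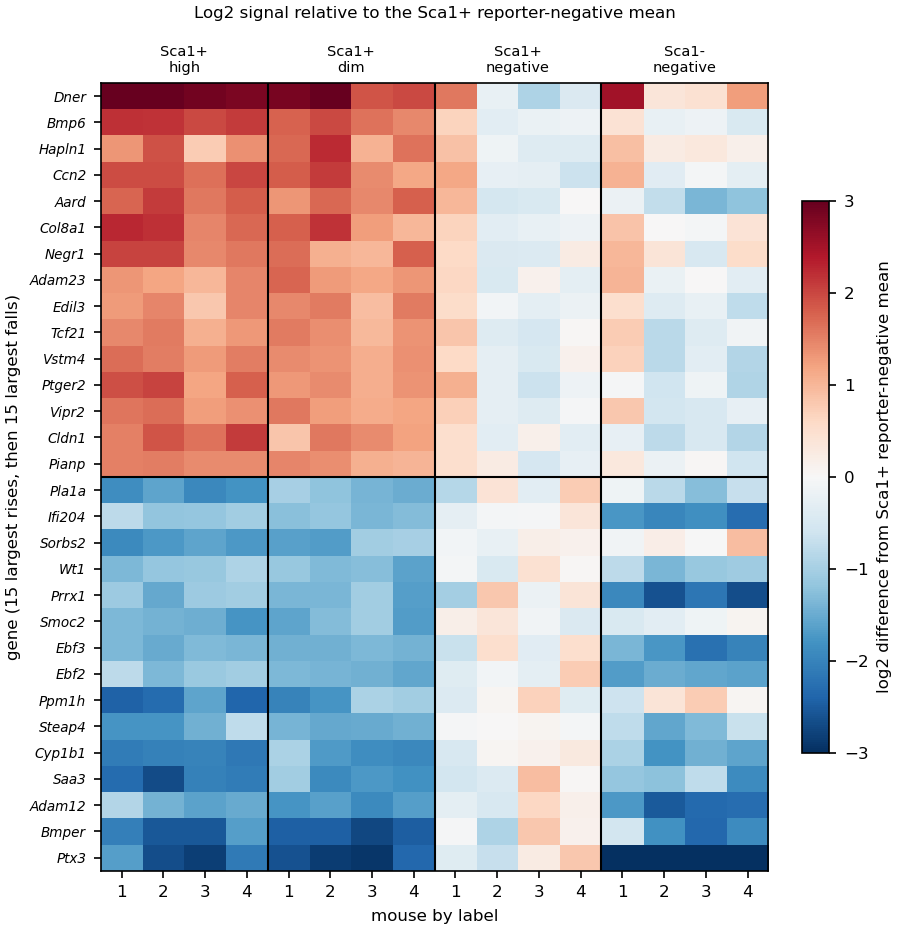
Log2 signal of the 15 largest rises and 15 largest falls on 16 arrays, relative to the mean of the 4 reporter-negative Sca1+ arrays, with columns by population and labelled mouse and colours clipped at a difference of 3. Rises are high in reporter-high and reporter-dim arrays and above the group mean in the reporter-negative array of mouse 1. Of 15 falls 13 have their highest mean in reporter-negative Sca1+ cells, which the choice of the falls itself favours.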

How the data were processed

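Cells were sorted from the colons of 4 labelled mice into 4 populations, 1 array each. Per the submitters' processing notes the software was Affymetrix Expression Console 1.1. How probe signals were summarized and normalized is not given in the sources used here. Each deposited value is a score, standardized per probe set by the authors over 16 arrays to mean 0 and SD 1. Whole-number signals were recovered from the scores for all 45141 probe sets (recomputed scores within 1e-09) and put on the log2 scale. The design had assumed log2 values. On simulated data 997 of 998 probe sets were recovered.

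Of 45141 probe sets, 28898 named 1 gene, 551 several, 15588 none and 104 were controls. Each gene took its brightest probe set, and other probe sets of several named genes, in both directions, did not pass. Ly6a, the Sca1 gene, is not analysed here.

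The test was limma 3.58.1 (R 4.3.3) on log2 signals of the 16 arrays, modelling each population by its mean without a block, two-sided, adjusted by Benjamini-Hochberg over 17097 genes (threshold 0.05). Signals and figures were made in Python 3.11.15 with numba 0.67.0, numpy 2.4.6, matplotlib 3.10.9 and pandas 2.3.3. The next sentences concern the limma test. Its p-values measure the spread between arrays within a population, estimated jointly over the 4 populations. The labels name the animals of a population as separate. Without a block the test ignores that the populations share labelled mice. Array background means a signal no higher than the brightest of 23 nonspecific controls on every array of the population.

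Numbers pair the arrays by label, since both populations come from the same animals. Mouse 2 goes against this. Named genes are the 15 largest rises and falls that passed the threshold with 1 sign in 4 mice and at least 1 population mean above the median probe set, then up to 3 called members of each list, or the largest difference where none was called. Predicted genes were left out. Of 1051 genes in 53 lists 937 were measured. Members and lists were chosen with earlier results of these data known. Alternatives were the block, 8 arrays, scaling, filters, probe set means, the scores, an epithelial covariate and leaving out arrays.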

Additional observations from a re-analysis of the deposited data

Results flagged for a closer look

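In groups of 4 arrays, the highest or lowest array was set against the others for 90 groups, and 4 stood apart (4.44%), where chance gives about 1 in 20. The reporter-negative array of mouse 1 stood apart for Bmp6, at 4627 against 2352 to 2637 in the others. The same array stood apart for Col8a1, at 3543 against 1786 to 1987. Bmper read 160 in the reporter-dim array of mouse 3 against 191 to 194, all at array background. The mean log2 signal of 11 genes of interstitial cells of Cajal was 11.29 in the reporter-dim array of mouse 4 against 10.96 to 11.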

How the results depend on the processing

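The cause of the changes below was not tested. Against 258 called genes, the replicate block by label called 2386 (2373 with 8 arrays), the block with mouse 2 as 2 animals 1571, the block without mouse 2 796 and an Xist covariate 1360. The last 3 were chosen after seeing the data. Scaling to hybridization controls called 573, the epithelial covariate 42 and the deposited scores 0 (limma, 2723 at an unadjusted p under 0.05). Leaving out arrays gave 10 to 1540. The 8 arrays alone, quantile normalization, the filter on dim genes, probe set means and a trended robust fit called 251 to 290. Of the 258 genes 150, 248, 252, 199 and 239 were among them, in this order. For reporter-high minus reporter-dim the count was 242, 1280 with the replicate block, and 0 to 620 without single mice (limma, 2096 and 2006 at an unadjusted p under 0.05 without mouse 2 or 4, where it was 0). It was also 0 without the reporter-dim array of mouse 3 (2160 at an unadjusted p under 0.05), and 7163 with hybridization scaling. All 30 leading genes kept their direction under every alternative run, but many of these alternatives could not reverse it. The block by label, the 8 arrays alone, the filter on dim genes and the trended robust fit leave the difference itself unchanged. The 30 genes were chosen as called genes with the same sign in all labelled mice, which itself favours a kept direction. Leaving out a whole mouse, with or without a block, could not reverse such a sign. For the 29 of them whose arrays did not overlap, leaving out a single array or using the deposited scores could not reverse it either. All 30 missed the threshold on the deposited scores. Low signals hold array background, which limits differences of dim genes.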
